A study of Mus musculus with 6 samples.

Results

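Tyrosine and phenylalanine breakdown is represented here by 5 enzyme genes, Hpd, Hgd, Fah, Gstz1 and Qdpr. Each was taken as the transcript cluster (the probe group of the array that stands for a transcript) whose only platform gene symbol is that of the gene. The platform annotation held 1 such cluster for each gene and none shared with another symbol. All 5 passed the filter on dim clusters, so they are 5 of the 22087 genes tested.

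The kidneys came from female Pkd1 miR transgenic mice, named for Pkd1, the main gene of polycystic kidney disease. Metformin, a biguanide drug for diabetes, was injected into the peritoneum of 3 mice at 150 mg per kg per day, and 3 mice received saline injections. Treatment ran from postnatal day 35 to day 63 in both groups, and kidneys were harvested at day 63. All 6 mice carry the transgene, and no mice without it were analysed here. The promoter that drives it was not given in the sources used here. Labels call the arrays biological replicates, with 1 array for each mouse, and the RNA came from snap-frozen kidney tissue.

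Phenylalanine is hydroxylated to tyrosine with tetrahydrobiopterin as cofactor, and the dihydropteridine reductase encoded by Qdpr regenerates that cofactor. Tyrosine is then transaminated to 4-hydroxyphenylpyruvate. The dioxygenase Hpd turns this into homogentisate, the dioxygenase Hgd opens its ring to maleylacetoacetate, the zeta-class glutathione transferase Gstz1 isomerises that to fumarylacetoacetate, and the hydrolase Fah splits it into fumarate and acetoacetate. Liver is the main site of the pathway, and the proximal tubule of the kidney also expresses these enzymes. In humans, loss of HGD causes alkaptonuria and loss of FAH causes hepatorenal tyrosinemia.

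The deposited values are log2 expression. Array medians over all clusters were 4.73 to 4.86 with metformin and 4.67 to 4.74 with saline. The Pearson correlation between arrays over all clusters was at least 0.994 within metformin, at least 0.993 within saline, and 0.984 to 0.993 between the groups. The proximal tubule phosphate carrier Slc34a1, a defining kidney marker, read 18.15 to 18.50 with metformin and 18.60 to 18.69 with saline. The limma test, a linear model per gene whose spread is moderated across genes, called 15.8% of genes (adjusted p below 0.05), 1482 of them higher with metformin and 2006 lower, a share of 42.5% higher. Centring each array on its median gave 25.2% higher. Quantile normalization gave 20.7% higher, with a median over all genes of -0.10, against 0.02 on the deposited values.

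All 5 breakdown genes fell in the metformin kidneys, by 1.66-fold to 2.46-fold, where 9.08% of all genes tested fell. None of them rose, where 6.71% of all genes did. The 5 genes and the lists below were chosen with earlier results of these data known, so these shares are a description and no test. Hpd and Gstz1 had the largest falls and Fah the smallest. Every metformin array lay below every saline array for each of the 5 genes, a pattern found in 19.4% of all genes tested, while 17.8% had every metformin array above. The median change of the 5 was -0.87 log2 units (metformin minus saline throughout), against 0.02 over all genes, and 4.44% of all genes had a change as low as that of Fah or lower. Changes are differences of log2 values, the SE is that of the limma fit, and adjusted p-values are limma's with Benjamini-Hochberg adjustment over all genes tested. The adjusted p ran from 0.0183 for Gstz1 to 0.0472 for Hpd. With a block on the replicate number 3 of the 5 were called (highest limma adjusted p 0.0732), where 10.98% of all genes fell. With a plain linear model per gene in place of limma's shared spread, 0 of the 5 were called (adjusted p from 0.116 to 0.189), and 4 had an unadjusted p below 0.05. In that model 44 of the 22087 genes were called, and 5913 had an unadjusted p below 0.05.

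**Figure D1:**
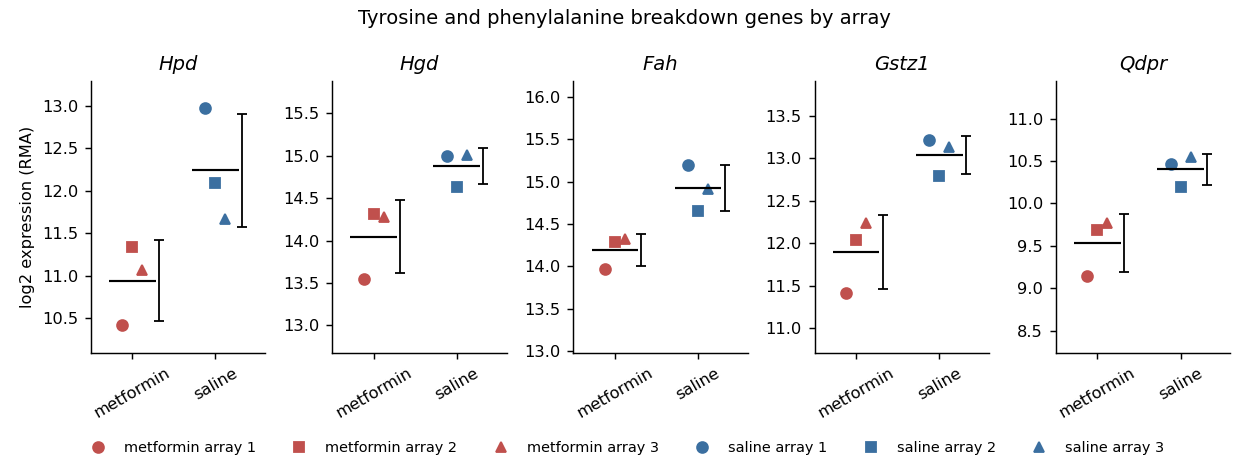
Log2 expression of the 5 breakdown genes on each array, metformin left and saline right, with the group mean as a line and the SD (n = 3) as a bar. All panels span the same number of log2 units. In each panel the metformin arrays sit below the saline arrays, with metformin array 1 lowest, and Hpd shows the widest scatter.

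Hpd, the dioxygenase that makes homogentisate, read 10.42, 11.34 and 11.07 on metformin arrays 1 to 3, against 12.97, 12.09 and 11.67 on saline arrays 1 to 3. The groups were 0.32 apart at their nearest values, and saline array 1 stood well above the other saline arrays. The means were 10.94 ± 0.48 with metformin and 12.24 ± 0.67 with saline (SD, n = 3 each). Its change was -1.30 ± 0.35 (SE; 95% interval -2.13 to -0.47; limma adjusted p = 0.0472), a 2.46-fold fall. Blocking on the replicate number ended this call at the same change (limma adjusted p = 0.0732).

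Hgd, which opens the ring of homogentisate, read 13.55, 14.31 and 14.28 on metformin arrays 1 to 3, against 14.99, 14.63 and 15.01 on saline arrays 1 to 3. Metformin array 1 was the low one here, and the groups were 0.33 apart. The means were 14.05 ± 0.43 with metformin and 14.88 ± 0.21 with saline (SD, n = 3 each). The change was -0.83 ± 0.22 (SE; 95% interval -1.35 to -0.32; limma adjusted p = 0.0426), a 1.78-fold fall. Blocking on the replicate number ended the call (limma adjusted p = 0.0507).

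Gstz1, the maleylacetoacetate isomerase, read 11.41, 12.04 and 12.24 on metformin arrays 1 to 3, against 13.21, 12.79 and 13.13 on saline arrays 1 to 3. The gap between the groups was 0.55, the widest of the 5 genes. The means were 11.90 ± 0.43 with metformin and 13.04 ± 0.22 with saline (SD, n = 3 each). The change was -1.15 ± 0.22 (SE; 95% interval -1.66 to -0.63; limma adjusted p = 0.0183), a 2.21-fold fall.

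Fah, the last enzyme of the path, read 13.98, 14.28 and 14.32 on metformin arrays 1 to 3, against 15.19, 14.65 and 14.92 on saline arrays 1 to 3. Its metformin values were the most tightly grouped of the 5 genes. The means were 14.19 ± 0.19 with metformin and 14.92 ± 0.27 with saline (SD, n = 3 each). The change was -0.73 ± 0.16 (SE; 95% interval -1.10 to -0.35; limma adjusted p = 0.0270), a 1.66-fold fall.

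Qdpr, the reductase that restores tetrahydrobiopterin for phenylalanine, tyrosine and tryptophan hydroxylases, read 9.14, 9.68 and 9.77 on metformin arrays 1 to 3, against 10.46, 10.19 and 10.54 on saline arrays 1 to 3. The groups were 0.43 apart. The means were 9.53 ± 0.34 with metformin and 10.40 ± 0.18 with saline (SD, n = 3 each). The change was -0.87 ± 0.18 (SE; 95% interval -1.30 to -0.44; limma adjusted p = 0.0228), a 1.83-fold fall.

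The arrays within a group did not stand alike. Metformin array 1 was the lowest of the 6 arrays for all 5 genes. Among the saline arrays, array 2 was the lowest for 4 of the 5 genes, and Hpd was the exception, with array 3 lowest. Averaged over the 5 genes, the deviation from the mean of the 6 arrays was -0.91, -0.28 and -0.27 on metformin arrays 1 to 3, against 0.76, 0.26 and 0.44 on saline arrays 1 to 3.

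Leaving out 1 array at a time kept every one of the 5 changes below 0 and ended many of the calls. Dropping a metformin array left 2 of the 5 called (replicate 1 dropped), 0 (replicate 2) or 3 (replicate 3). Dropping a saline array left 0 called (replicate 1 dropped), 4 (replicate 2) or 2 (replicate 3). In each of these limma fits all 5 had an unadjusted p below 0.05, as did 5448 to 7357 of the 22087 genes. Over all genes tested, the share that fell was 3.20%, 3.54% and 4.86% when metformin replicate 1, 2 or 3 was dropped. It was 2.22%, 9.66% and 5.37% when saline replicate 1, 2 or 3 was. The change of Hpd ranged from -1.59 without saline replicate 3 to -0.94 without saline replicate 1. That of Hgd ranged from -0.97 without metformin replicate 2 to -0.58 without metformin replicate 1. Gstz1 kept its call in 4 of the 6 fits, Qdpr in 3, Fah in 2, and Hpd and Hgd in 1 each, with the highest limma adjusted p at 0.141 for Hgd.

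**Figure D2:**
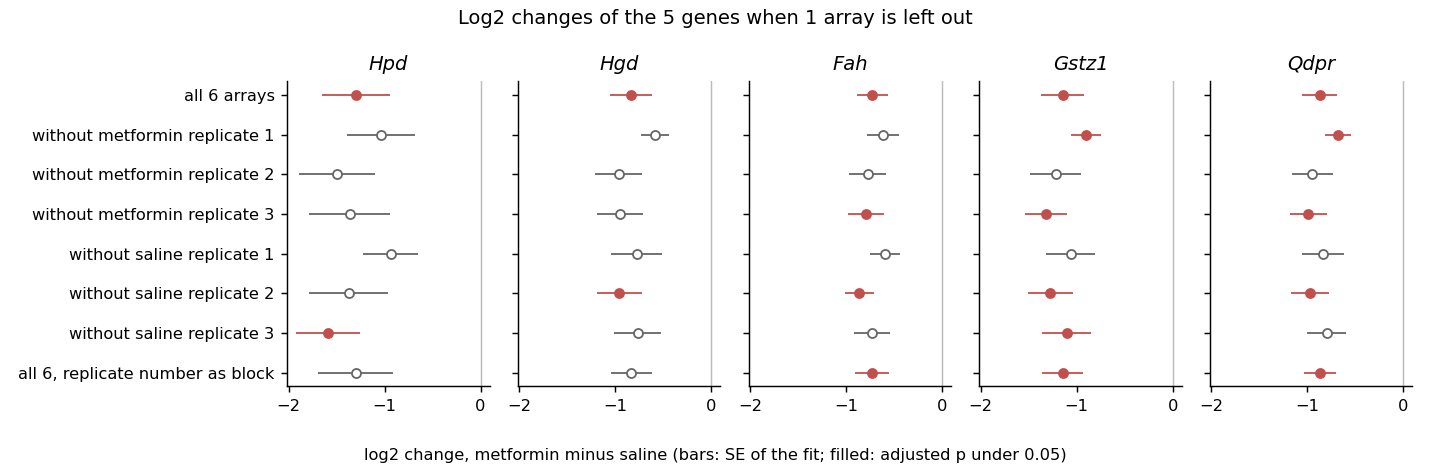
Log2 change (metformin minus saline) of each breakdown gene with all 6 arrays, with 1 array left out, and with a block on the replicate number. Bars are the SE of the limma fit and filled points passed an adjusted p of 0.05. Every point lies below 0, and without metformin replicate 2 or saline replicate 1 none of the 5 is filled.

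Whether the 5 genes fell by unequal amounts was asked from differences within an array. The exact permutation test (two-sided, 3 arrays against 3) cannot give a p below 0.1. Of the 10 pairs of breakdown genes, Gstz1 had groups that did not overlap against Hgd, Fah and Qdpr. The difference in change was 0.42 for Fah minus Gstz1 and 0.31 for Hgd minus Gstz1. Its difference to Qdpr (Gstz1 minus Qdpr) was -0.28. Each of these had an exact permutation p = 0.1, the smallest the design allows, and an adjusted p = 0.375 over the 15 comparisons made, so no difference between members passed. Hpd minus Fah came to -0.57, with a range from -0.86 to -0.34 when an array was left out (exact permutation p = 0.2), and its groups overlapped.

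The start regions of the 5 genes are shown to set their base composition side by side, because the genes fell together. Sequences are RefSeq promoter windows of build GRCm38.p6, from 250 bases before to 50 after an annotated start, and all 5 genes matched, Gstz1 with 2 windows. Hgd has the fewest CG pairs, Qdpr the most, and Hpd lies between, so these are printed on the coding strand with every CG in capitals. The Hgd window is chr16:37579903-37580202 on the plus strand, the Hpd window chr5:123182674-123182973 on the minus strand and the Qdpr window chr5:45450180-45450479 on the minus strand.
Hgd: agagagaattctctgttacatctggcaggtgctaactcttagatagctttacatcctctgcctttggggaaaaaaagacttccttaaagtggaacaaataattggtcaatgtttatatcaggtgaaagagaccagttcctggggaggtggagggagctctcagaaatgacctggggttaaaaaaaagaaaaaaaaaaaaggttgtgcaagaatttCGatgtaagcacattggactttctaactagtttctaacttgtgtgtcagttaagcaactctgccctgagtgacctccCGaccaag
Hpd: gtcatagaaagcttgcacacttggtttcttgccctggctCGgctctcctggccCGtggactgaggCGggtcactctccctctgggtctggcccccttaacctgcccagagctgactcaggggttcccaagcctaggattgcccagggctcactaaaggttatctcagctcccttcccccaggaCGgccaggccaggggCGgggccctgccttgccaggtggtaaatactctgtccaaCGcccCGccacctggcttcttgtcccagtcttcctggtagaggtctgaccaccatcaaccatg
Qdpr: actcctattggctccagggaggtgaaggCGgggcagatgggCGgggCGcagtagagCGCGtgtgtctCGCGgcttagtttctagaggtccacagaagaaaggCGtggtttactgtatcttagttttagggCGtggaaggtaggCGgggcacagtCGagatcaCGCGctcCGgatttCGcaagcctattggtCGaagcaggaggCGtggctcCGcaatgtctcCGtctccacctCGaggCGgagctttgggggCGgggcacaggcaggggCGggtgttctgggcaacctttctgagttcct

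The Hgd window held 2 CG pairs at 41.0% G and C, the Hpd window 7 at 61.3%, and the Qdpr window 23 at 60.7%. The Fah window, chr7:84605893-84606192 on the minus strand, held 19 CG pairs at 64.3%. The Gstz1 windows, chr12:87146915-87147214 and chr12:87157353-87157652 on the plus strand, held 15 at 59.0% and 3 at 54.7%. Over 32841 windows the median was 7 CG pairs and 52.7% G and C. In CG pairs the windows sit on both sides of the median, with Hpd at it. In G and C only the Hgd window lies below the median. Exact letters of 4 motifs were searched on both strands. The half-site of the liver and kidney factor HNF1, GTTAAT, was in 7.10% of all windows. The HNF4 letters CAAAGTCCA were in 0.475% of them. The E-box CACGTG was in 7.15% and the TATA box TATAAA in 13.6%. The one match in the 6 windows was TATAAA on the opposite strand of the Hgd window, at position -139 from the start. These are the letters of 1 window per gene, or 2 for Gstz1, and say nothing about which factors bind.

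Around phenylalanine hydroxylation, 2 of 7 genes for the biopterin cofactor and its use fell and none rose (median change -0.50). They were Pcbd1, the dehydratase that recycles the cofactor together with Qdpr, and Dnajc12, a co-chaperone of the aromatic amino acid hydroxylases. Pcbd1 read 12.57, 13.21 and 13.41 with metformin, against 14.45, 13.81 and 14.31 with saline (change -1.12 ± 0.25, SE; limma adjusted p = 0.0260). Dnajc12 read 8.96, 9.96 and 10.12 with metformin, against 11.47, 10.69 and 11.43 with saline (change -1.52 ± 0.34, SE; limma adjusted p = 0.0263). Both sets of values did not overlap, and metformin array 1 was again the lowest. Sepiapterin reductase Spr had a change of -0.50 (limma adjusted p = 0.0555), Gchfr, the feedback regulator of the first synthesis step, -0.50 (0.0749), and the synthase Pts -0.35 (0.0850). GTP cyclohydrolase Gch1 had a change of 0.15 (0.309) and the paralog Pcbd2 of 0.07 (0.631). The count of 2 became 5 after median-centring or without saline replicate 2, and 4 after quantile normalization or with array weights. Over all genes the share that fell was 12.3% after median-centring, 17.2% after quantile normalization and 10.96% with array weights, against 9.08% as deposited. The biopterin count was 1 when metformin replicate 1 was dropped and 0 when metformin replicate 2, saline replicate 1 or saline replicate 3 was.

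Transamination of tyrosine can be carried out by several enzymes. Tyrosine aminotransferase Tat, the liver enzyme, was under the filter, at 3.59 to 3.79 on all 6 arrays. Of 6 genes tested for transamination and for the keto-enol step, the aspartate aminotransferases Got1 (change -0.77 ± 0.19, SE; limma adjusted p = 0.0366) and Got2 (-0.68 ± 0.13; 0.0193) fell and none rose, with a list median of -0.61. By comparison, 9.08% of all genes tested fell. Got1 read 12.60, 13.31 and 13.20 with metformin, against 13.89, 13.63 and 13.91 with saline, and the groups did not overlap. Kyat3 (-0.95, limma adjusted p = 0.0978) and the tautomerase Mif (-0.54, 0.0674) had overlapping groups, and Kyat3 was called when the replicate number was blocked (limma adjusted p = 0.0452). The count of 2 was 0 when metformin replicate 1 or 3 or saline replicate 1 was dropped, and 1 when metformin replicate 2 was. The share of all genes that fell was 3.20%, 4.86% and 2.22% in the former fits and 3.54% in the latter.

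Of 2 tested relatives of these enzymes, 1 fell, where 9.08% of all genes did. Fahd1, a mitochondrial acylpyruvase of the fumarylacetoacetase family, read 9.89, 9.94 and 10.08 with metformin, against 11.14, 10.57 and 10.98 with saline. It fell by 0.93 ± 0.16 (SE; limma adjusted p = 0.0128) and was called in all 6 fits with an array left out. Fahd2a of the same family had a change of 0.12 (limma adjusted p = 0.654) with overlapping groups. Hpdl, the paralog of Hpd, was under the filter, with no metformin array above 3.41 and no saline array below 3.61.

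Of 4 tested genes for other fates of tyrosine, the aromatic amino acid decarboxylase Ddc and the monoamine oxidase Maob fell and none rose (list median -0.45). The share of all genes that fell was 9.08%. Ddc read 9.46, 10.06 and 10.19 with metformin, against 11.62, 10.84 and 11.84 with saline (change -1.52 ± 0.29, SE; limma adjusted p = 0.0173). Maob read 6.68, 6.68 and 6.74 with metformin, against 7.50, 7.68 and 7.29 with saline (change -0.79 ± 0.12, SE; limma adjusted p = 0.00978). The Maob values were tight in metformin, and its call held in all 6 fits with an array left out. That of Ddc ended without metformin replicate 1, metformin replicate 2 or saline replicate 1. Maoa had a change of -0.11 (limma adjusted p = 0.549) and Dbh of 0.11 (0.424). Tyrosine hydroxylase Th and the pigment enzymes Tyr, Tyrp1 and Dct were under the filter, at 3.11 to 3.96 on all arrays.

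Of 10 carriers of aromatic and other neutral amino acids, 7 fell and none rose (median -0.79), where 9.08% of all genes fell and 6.71% rose. Slc16a10, the uniporter for aromatic amino acids, read 10.10, 10.59 and 10.80 with metformin, against 11.88, 11.70 and 11.89 with saline. It fell by 1.33 ± 0.18 (SE; limma adjusted p = 0.00782) and kept its call in all 6 fits with an array left out. The apical carrier Slc6a19 (-1.33, limma adjusted p = 0.0327), the light chains Slc7a9 (-1.11, 0.0185), Slc7a7 (-1.08, 0.0258) and Slc7a8 (-0.78, 0.0146), and the heavy chains Slc3a2 (-0.79, 0.0213) and Slc3a1 (-0.63, 0.0335) fell as well. Slc7a5, Slc6a18 and Slc43a2 had changes of 0.12, -0.40 and -0.18, with overlapping groups. The count of 7 was 4 when metformin replicate 1 or saline replicate 3 was dropped, and 1 when metformin replicate 2 or saline replicate 1 was. The share of all genes that fell was 3.20% and 5.37% in the former fits and 3.54% and 2.22% in the latter.

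Fumarate and acetoacetate, the end products, are used by other enzymes, of which 2 of 7 fell and none rose (median -0.52). The 2 genes compare with 9.08% of all genes tested that fell. The 2 that fell were the acetoacetyl-CoA thiolase Acat1 (-0.89 ± 0.18, SE; limma adjusted p = 0.0220) and malate dehydrogenase Mdh1 (-0.49 ± 0.13; 0.0463). Fumarase Fh1 had a change of -0.45 (0.0622), Mdh2 of -0.46 (0.0531), Oxct1 of -0.52 (0.0768) and Aacs of -0.66 (0.179), and all 7 lay below 0. The ketone dehydrogenase Bdh1 had a 95% interval from -1.67 to -0.34 (limma adjusted p = 0.0529). The count was 5 after median-centring, after quantile normalization, with array weights or without saline replicate 2, and 4 with a stricter filter. It was 1 with the eBayes trend, with no filter or without metformin replicate 3, and 0 when any of the other 4 arrays was dropped. The share of all genes that fell was 12.3% after median-centring, 17.2% after quantile normalization, 10.96% with array weights and 9.66% without saline replicate 2. It was 12.3% with the stricter filter, 8.57% with the trend, 6.10% with no filter and 4.86% without metformin replicate 3. Dropping metformin replicate 1 or 2 or saline replicate 1 or 3 gave 3.20%, 3.54%, 2.22% and 5.37%.

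Falls of this size were not limited to the tyrosine path. Among genes from tryptophan to NAD 8 of 10 fell (median -0.75), and among genes of branched-chain amino acid breakdown 13 of 17 (median -0.71), and none rose in either list. The share of all genes tested that fell was 9.08%. Acmsd, the decarboxylase that turns the pathway away from NAD, had the largest change of the tryptophan list, -2.05 ± 0.46 (SE; limma adjusted p = 0.0274). Kmo (-1.11), Haao (-1.02), Kynu (-0.95), Afmid (-0.85), Ido2 (-0.65), Nmnat1 (-0.60) and Qprt (-0.58) fell as well, with limma adjusted p from 0.0109 to 0.0367. Tdo2, which opens the tryptophan ring in liver, was under the filter at 3.36 to 3.66. In the branched-chain list the largest change was that of Aldh6a1, methylmalonate semialdehyde dehydrogenase, -1.51 ± 0.25 (SE; limma adjusted p = 0.0118). Ivd (-1.11), Pccb (-1.02), Mccc2 (-0.99), Acad8 (-0.93), Bckdhb (-0.86), Hibadh (-0.84), Dbt (-0.84), Hibch (-0.71), Hsd17b10 (-0.70), Acadsb (-0.69), Dld (-0.68) and Pcca (-0.68) fell as well. Their limma adjusted p ran from 0.0122 to 0.0458, and that of Bckdhb was 0.0529 with the block. Dropping saline replicate 1 left 1 gene of the tryptophan list called and 0 of the branched-chain list. Dropping metformin replicate 1 left 4 and 6, metformin replicate 2 left 3 and 6, and saline replicate 3 left 5 and 5. Metformin replicate 3 left 7 and 9, and saline replicate 2 left 8 and 15. In the order given, the share of all genes that fell was 2.22%, 3.20%, 3.54%, 5.37%, 4.86% and 9.66%. The branched-chain count was also 15 after median-centring, after quantile normalization and with array weights. In those fits 12.3%, 17.2% and 10.96% of all genes fell. No test of a difference between these lists and the 5 tyrosine genes was made.

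**Figure D3:**
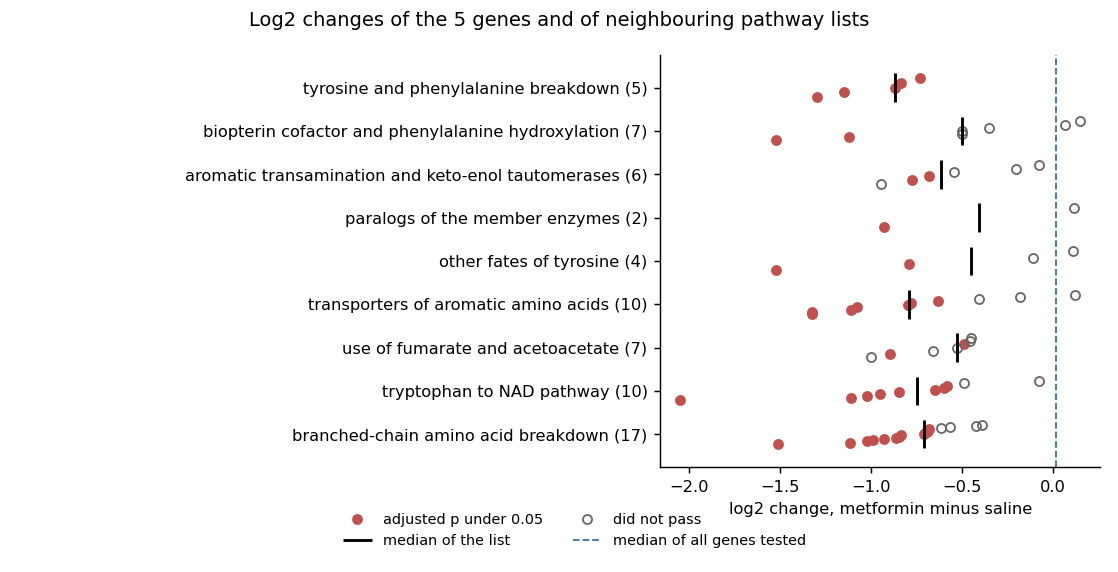
Log2 change (metformin minus saline) of each tested gene in the 5 breakdown genes and in 8 neighbouring lists, with the number tested in brackets. Filled points passed an adjusted p of 0.05, short lines are list medians and the dashed line is the median of all genes at 0.02. All filled points lie left of 0.

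The nearest genes by profile were, for each breakdown gene, the 3 genes with the smallest root mean square difference from it over the 6 arrays, after centring every gene on its own mean. They were ranked among 14124 protein-coding genes, with predicted and unnamed genes left out. For Hgd they were Aldh7a1 (0.051 log2 units), Got1 (0.059) and Gcdh (0.064). For Gstz1 they were Cideb (0.055), Pcbd1 (0.067) and Mrpl50 (0.069). For Fah they were Tmem70 (0.032), Mettl8 (0.050) and B3gat2 (0.052), and for Qdpr they were Slc47a1 (0.027), Fcgrt (0.031) and Slc5a11 (0.032). For Hpd the nearest in this ranking stood farther off, with Tmem204, Ogn and Snx31 at 0.219, 0.245 and 0.265. Hgd and Qdpr were 0.070 apart, while Hpd was 0.390 to 0.471 from the other 4 genes. These distances describe 6 arrays in 2 groups and were not tested.

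Of 20 proximal tubule markers 4 fell (14 with the block on replicate number, 15 after quantile normalization), none rose, and the median change was -0.76. Over all genes 10.98% fell with the block and 17.2% after quantile normalization, against 9.08% without either. The 4 were Slc5a12, Slc22a8, Acsm2 and Fbp1, and the count was 0 when metformin replicate 1 or 2 or saline replicate 1 or 3 was dropped. The mean log2 level of the 20 was 14.5 to 15.1 on the metformin arrays and 15.3 to 15.7 on the saline arrays, with no overlap. In whole-kidney RNA, fewer proximal tubule cells and less RNA per cell cannot be told apart. Set against the mean deviation of these markers within each array, the change of Gstz1 was lower by 0.49, with groups that did not overlap (exact permutation p = 0.1, adjusted p = 0.375). Fah differed from the markers by -0.07, Hgd by -0.18, Qdpr by -0.21 and Hpd by -0.64, with overlapping groups and exact permutation p-values from 0.2 to 0.9.

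Markers of other cell types gave other values. All 8 macrophage markers tested lay above 0 (median 0.67, of which Lyz2 rose), at a mean level of 9.35 to 9.87 with metformin and 8.18 to 9.64 with saline, so the groups overlapped. The number of macrophage markers that rose was 6 when saline replicate 2 was dropped and 0 when any other array was. Without saline replicate 2, 1828 of the 22087 genes rose, against 1482 with all 6 arrays. All 8 adipocyte markers lay below 0 (median -1.48, of which Adipoq fell), at 5.55 to 5.58 with metformin and 5.92 to 8.08 with saline, and saline arrays 1 and 2 held the high values. With metformin Ucp1 read 3.74 to 3.96, under the filter level (4.03), and Adipoq 4.05 to 4.25, just above it. Ucp1 passed the filter through its saline values, so its direction was favoured in advance. Pnpla2, at 11.56 to 12.02 with metformin, raised the list mean. The size of falls to such dim levels is uncertain. The number of adipocyte markers that fell was 8 when saline replicate 3 was dropped, 4 after quantile normalization or with array weights, 3 with the block, and 0 when a metformin array or saline replicate 1 was dropped. Of all genes, 5.37% fell without saline replicate 3, 17.2% after quantile normalization, 10.96% with array weights and 10.98% with the block. Saline array 2, with the highest adipocyte level, was the lowest saline array for 4 of the 5 breakdown genes. Among the saline arrays it also had the highest macrophage level (9.64) and the highest fibroblast and smooth muscle level (10.55). Its proximal tubule level (15.26) was the lowest of the saline arrays. Without saline array 2 the changes of the 5 ranged from -1.38 for Hpd to -0.86 for Fah. Of 10 collecting duct markers 5 fell (median -0.58), and of 9 markers of the loop of Henle and distal tubule 2 fell (median -0.14). By comparison, 9.08% of all genes tested fell. Both marker counts ran from 1 to 4 over the fits with an array dropped, lowest for both without metformin replicate 1 or saline replicate 1. The loop and distal count was 4 after quantile normalization. Over all genes the share that fell ran from 2.22% to 9.66% with an array dropped and was 17.2% after quantile normalization. Of 8 podocyte and endothelial markers 1 fell (median -0.14), and of 2 red blood cell genes 1 fell. Of 8 fibroblast and smooth muscle markers 1 rose and 1 fell (median 0.63). Counts of 1 in 8 stand near the share over all genes tested, of which 9.08% fell and 6.71% rose. The number of fibroblast and smooth muscle markers that rose was 5 when saline replicate 2 was dropped, 4 with the block or with array weights, and 0 after median-centring or when any other array was dropped. The number that fell was 2 when saline replicate 3 was dropped, and 0 with no filter or when any other array was dropped. Among the 22087 genes, 1828 rose without saline replicate 2, 1944 with the block, 1852 with array weights and 913 after median-centring. The podocyte and endothelial count was 2 after either scaling, and 0 when metformin replicate 1 or 2 or saline replicate 1 or 2 was dropped. The red blood cell count was 0 when a metformin array or saline replicate 1 was dropped. The part of macrophages, fibroblasts and fat in the changes of the 5 genes was not tested.

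**Figure D4:**
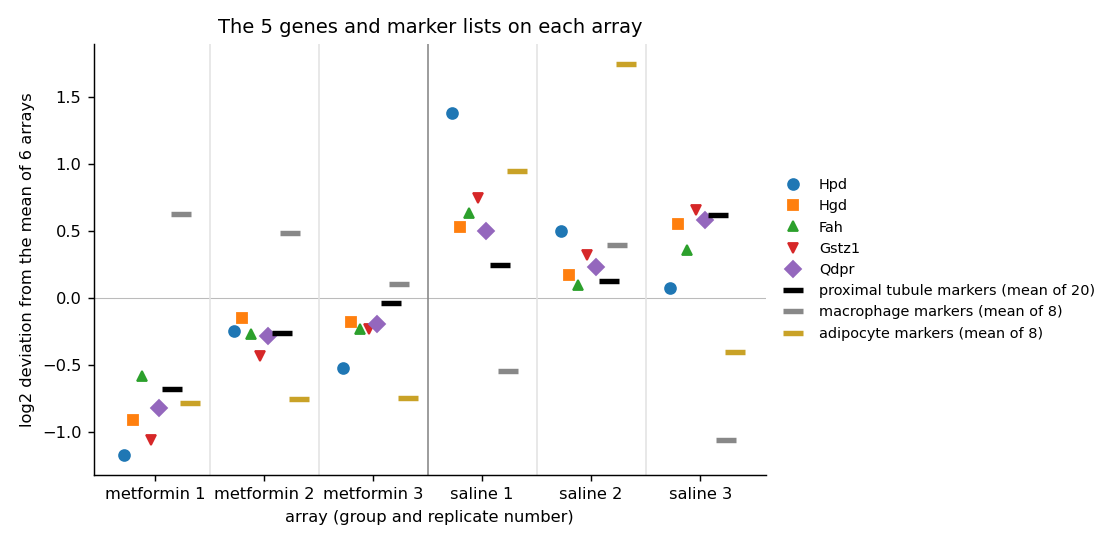
Deviation of each breakdown gene from its own mean over the 6 arrays, in log2 units, with the mean deviation of the proximal tubule (20 genes), macrophage (8) and adipocyte (8) markers on the same arrays. Hpd lies above the other 4 genes on saline arrays 1 and 2 and below them on saline array 3. Adipocyte markers peak on saline array 2.

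Because liver holds these enzymes in abundance, liver markers were read on the same arrays. The list ranged widely in level. Ahsg, Apoh and Cps1 were at 3.32 to 4.07 on all 6 arrays, under or near the level of the filter (4.03). Fgg, Fga, Fgb and Alb had mean log2 levels of 12.58, 10.83, 8.16 and 8.06 over the 6 arrays. Of 8 tested members of the liver list Alb and Apoa2 fell and Serpinc1 rose (median 0.27), where 9.08% of all genes fell and 6.71% rose. The mean level of the list was 7.03 to 7.70 with metformin and 6.77 to 7.68 with saline, with overlap. In this list 0 fell when saline replicate 1 was dropped and 2 when any other array was. The number that rose was 0 when metformin replicate 1 or 2 or saline replicate 1 or 3 was dropped, and 2 when saline replicate 2 was. Alb fell by 1.51 (limma adjusted p = 0.0119), reading 6.93, 7.51 and 7.50 with metformin against 9.05, 8.32 and 9.08 with saline. The fibrinogen genes Fga, Fgb and Fgg, which injured tubules also express, had changes of 0.55, 1.26 and 1.42 with overlapping groups. The tissue source of these liver-list transcripts was not tested.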

How the data were processed

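Whole-kidney RNA of 3 metformin and 3 saline mice was measured on 1 array each. The deposited log2 values per transcript cluster were made by the authors with RMA, and Transcriptome Analysis Console 4.0 is also named, per the submitters' processing notes. Probe definition and genome build were not given in the sources used here. Deposited values run from 1.94 to 19.9, and changes hold on the deposited scale only.

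Of 65956 clusters, 30604 have 1 gene symbol in the platform annotation and 2146 have several. Symbols were updated by Entrez number through the RefSeq table of GRCm38.p6 (22818 matched, 827 changed). The 33.3% of clusters with the lowest mean were left out (mean at or under 4.03), and the cluster with the highest mean was kept per gene, which gave 22087 genes. The number of arrays limits the precision.

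All genes were fitted by lmFit and eBayes of limma 3.58.1 (R 4.3.3), two-sided, without covariates, and adjusted by Benjamini-Hochberg at 0.05. Exact permutation tests used scipy 1.17.1. The 5 genes, the 8 pathway lists, the 9 marker lists and the tests were chosen with earlier results of these data known. Genes named are the 5, in each pathway list every called gene and up to 4 genes of smallest p, and the 3 nearest profiles of each of the 5. Further list members, and Alb, Slc34a1 and the other marker genes, were chosen after their values were seen.

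Correlations across genes between the deviations of same-numbered metformin and saline arrays were 0.118, 0.145 and 0.541 for replicates 1, 2 and 3, which the rule used here (all above 0.1) takes as pairing. Metformin 1 with saline 2 reached 0.299, and the labels do not say what a number stands for. A block on replicate number was among the 17 alternatives.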

Additional observations from a re-analysis of the deposited data

How the results depend on the processing

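None of the 17 alternatives turned the direction of any of the 5 changes. Under a block on the replicate number the calls of Hpd (-1.30, adjusted p = 0.0732) and Hgd (-0.83, adjusted p = 0.0507) ended, leaving 3 of 5 called. The block ended no other call among the named pathway genes than that of Bckdhb (adjusted p = 0.0529). With no filter on dim clusters Hpd was not called (-1.30, adjusted p = 0.0564), as more genes were adjusted over. In a plain linear model per gene 0 of 5 were called, at changes of -1.30, -0.83, -0.73, -1.15 and -0.87 for Hpd, Hgd, Fah, Gstz1 and Qdpr (adjusted p over all genes from 0.116 to 0.189), and 44 of all genes were (5913 had an unadjusted p below 0.05). That model estimates each gene's spread from its own 6 values. With 1 array left out the changes ran from -1.59 to -0.94 for Hpd, -0.97 to -0.58 for Hgd, -0.86 to -0.59 for Fah, -1.32 to -0.90 for Gstz1 and -0.99 to -0.68 for Qdpr. The number called ran from 0 to 4 of the 5, and from 842 to 3961 of all genes. With all 43971 clusters in the fit 7774 were called, 71.4% of them higher, and the 5 genes kept their calls. They did so too after median-centring, after quantile normalization, with a stricter filter on dim clusters, with the mean over clusters, with trend or robust options and with array weights. Relative to the median of all genes the changes under quantile normalization were -1.22, -0.83, -0.76, -1.04 and -0.86 in the same order. The array gives no detection call, so the dim genes named as under the filter have no measured change here.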
